A study of Mus musculus with 13 samples.

Results

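The 9 genes described here are markers of B cells and plasma cells in mouse lung: Ms4a1, Cd79a, Cd79b, Pax5, Blk, Cr2 and Pou2af1, which were read as B cell genes, and Mzb1 and Jchain, which were read apart as plasma cell genes. They were taken by symbol from tables of 20270 genes, and all 9 were found there and passed the filter on low counts. Lung RNA was sequenced from 13 mice. The Control group held 4 wild type (WT) mice given sterile saline, the WT bleomycin group held 5 WT mice that received 1 dose of bleomycin, and the CB1R KO bleomycin group held 4 mice that lacked the cannabinoid CB1 receptor in every cell (Cnr1-/-) and received the same dose. Bleomycin is a drug that injures the lung and is followed by fibrosis. It was given through the oropharynx at 1 U/kg, and the lower right lobe was taken at day 14. The wild type animals were male C57BL/6J mice obtained at 13 weeks of age, and the knockout was kept on the C57BL/6J background, with its age not given in the sources used here. Knockout mice that received no bleomycin are not analysed here, so an effect of the genotype alone and an effect on the response to bleomycin cannot be told apart.

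B cells recognise antigen through a membrane-bound antibody that signals through the CD79A and CD79B chains. After activation some of them become plasma cells, which switch off much of the B cell program, lose the surface receptor and secrete antibody in large amounts. PAX5 holds cells in the B cell state, and the J chain joins secreted IgA and IgM into polymers that are carried across mucosal surfaces such as the airway epithelium. The antibody chain genes themselves were not analysed here.

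In WT bleomycin lungs, 5 of the 7 B cell genes were lower than in control, with log2 fold changes from -1.497 (Pax5) to -0.997 (Ms4a1), while Jchain was higher with a log2 fold change of 2.70. None of the 9 genes passed the test between CB1R KO and WT bleomycin, which 0.979% of all genes passed. The fitted difference of every B cell gene was above 0, but these genes largely followed one another over the libraries and are not independent. In CB1R KO bleomycin lungs, Cd79a and Pax5 were lower than in control and Jchain was higher. In bulk tissue, fewer cells of a type and less RNA per cell cannot be told apart, and this holds for every value below.

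Of the 13 libraries, 12 had totals of 14615904 to 16662580 estimated counts, and the total of CB1R KO replicate 11 was 53463884. Levels are given as TPM, transcript abundance corrected for transcript length and library depth. Differences are given as log2 fold changes from edgeR's quasi-likelihood test on the counts. Its p-values were adjusted by Benjamini-Hochberg over 15315 genes, with a threshold of 0.05. The standard error (SE) of a log2 fold change was derived as its absolute value over the square root of the F statistic of that test. Sftpc, Ager and Scgb1a1, which mark alveolar and airway epithelium, stood at or above 14306, 1764 and 33836 TPM in all 13 libraries, as the tissue label states. Cnr1, the deleted gene, had 1.62 to 4.10 CPM (counts scaled by normalized library size) in control, 3.46 to 6.97 CPM in WT bleomycin and 2.47 to 5.63 CPM in CB1R KO bleomycin libraries, so its level did not separate the genotypes and did not check their labels. The labels of Control replicate 26 and WT bleomycin replicates 4-B2 and 7 are written in another letter case than the rest, a division that no label explains, and values within the lower-case libraries stand beside the results that they change. Control replicate 3 had the highest TPM in its group of every B cell gene but Cr2, for which it had the highest CPM. WT bleomycin replicate 4 had the highest TPM in its group of every B cell gene.

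Promoters of 3 genes are shown because the genes moved apart: Cd79a was lower after bleomycin, Pou2af1 had the log2 fold change nearest to 0 of the B cell genes, and Jchain was higher. Each line gives the 250 bases before the start of transcription, 5′ to 3′ on the strand of the gene, from the RefSeq table for GRCm38.p6. The Cd79a line covers chr7:24897247-24897496 on the plus strand, the Pou2af1 line chr9:51213440-51213689 on the plus strand, and the Jchain line chr5:88527898-88528147 on the minus strand. Capitals mark the only motif match among them.
Cd79a: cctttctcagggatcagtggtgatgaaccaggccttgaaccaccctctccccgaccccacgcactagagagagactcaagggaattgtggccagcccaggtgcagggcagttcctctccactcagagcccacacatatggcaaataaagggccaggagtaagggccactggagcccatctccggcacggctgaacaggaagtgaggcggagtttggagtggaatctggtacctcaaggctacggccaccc
Pou2af1: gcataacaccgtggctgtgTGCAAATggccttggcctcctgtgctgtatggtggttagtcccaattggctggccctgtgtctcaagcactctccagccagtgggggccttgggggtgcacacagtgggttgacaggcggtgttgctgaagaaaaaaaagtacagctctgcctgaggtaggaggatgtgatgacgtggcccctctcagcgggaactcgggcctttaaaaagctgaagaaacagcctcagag
Jchain: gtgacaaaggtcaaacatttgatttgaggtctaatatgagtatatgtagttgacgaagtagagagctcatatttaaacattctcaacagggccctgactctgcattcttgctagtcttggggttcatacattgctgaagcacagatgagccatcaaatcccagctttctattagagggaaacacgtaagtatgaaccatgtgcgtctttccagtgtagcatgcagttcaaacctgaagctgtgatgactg

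Promoters of 5 of the 9 genes were used here, namely Cd79a, Pou2af1, Jchain, Pax5 and Cr2, and those of Ms4a1, Cd79b, Blk and Mzb1 were not. Both strands of the 300 bases in the table, 50 of them after the start, were searched for the octamer ATGCAAAT, which POU2AF1 and its partner factors bind, the EBF core CCCNNGGG, a PU.1 site GAGGAAGT and an E2A E-box CAGCTG. None of the 5 promoters held an exact match to any of them. Only these exact letters were searched, so a binding site that departs from them would not be found. Of all 32851 promoters in the table, 1.74% held the octamer, 13.7% the EBF core, 3.2% the PU.1 site and 16.3% the E-box. The shorter octamer core TGCAAAT, which lies within the octamer and was searched after it gave no match, occurred once, in Pou2af1, with its first base 231 bases before the start, and 4.02% of all promoters held it. The Jchain promoter had 42.3% G and C and 3 CG pairs, that of Cd79a had 58.3% and 8, that of Pou2af1 55.3% and 8, that of Cr2 57.3% and 14, and that of Pax5 59.0% and 23. The median over all promoters was 52.7% with 7 CG pairs. The Jchain promoter was thus the poorest in CG pairs of the 5, and that of Pax5 the richest.

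**Figure D1:**
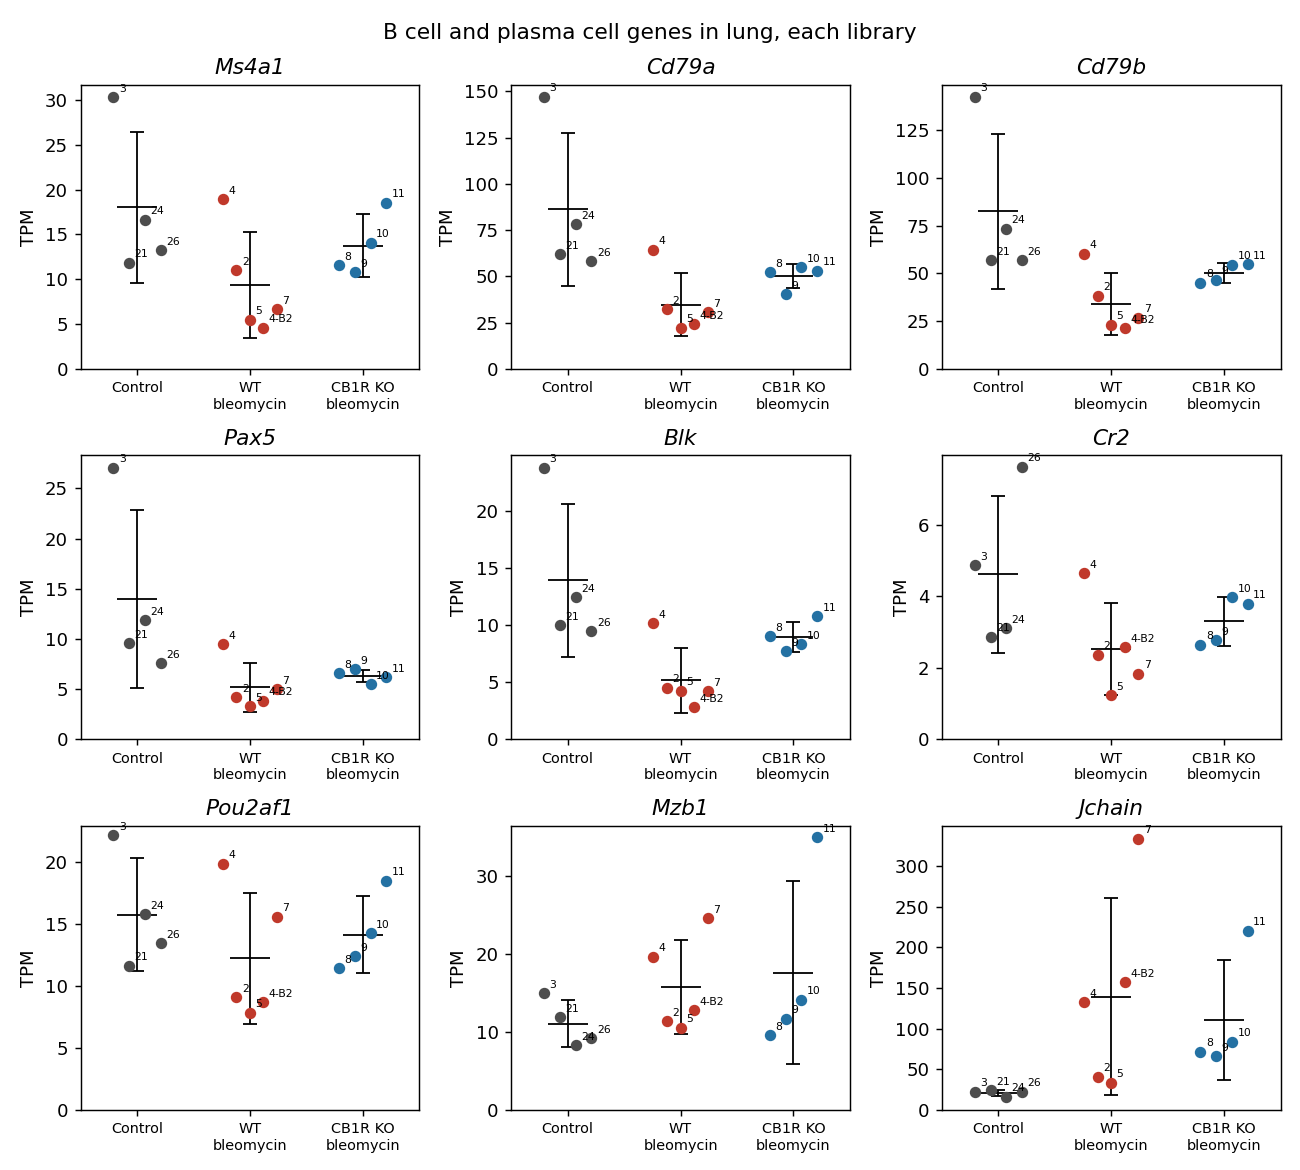
TPM of the 9 genes in each of the 13 libraries (y axis, linear, from 0) by group (x axis), with 1 point per mouse, its replicate name beside it, and the group mean ± SD as a bar with whiskers. Cd79a lies between 58.1 and 147 in control and between 22.2 and 64.4 in WT bleomycin, and Jchain lies between 15.9 and 24.2 in control and between 33.4 and 334 in WT bleomycin.

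The first comparison asked how B cell and plasma cell genes differed between WT lungs at day 14 after bleomycin and control lungs. Of the 7 B cell genes, 5 were lower, 0 were higher and 2 did not pass, and their median log2 fold change was -1.32. Of all genes tested, 23.9% were lower, and the median over all genes was -0.01. No B cell gene had TPM ranges that did not overlap, against 37.3% of all genes in either direction. In CPM, Pax5 and Blk did not overlap, against 40.3% of all genes.

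Cd79a and Cd79b encode the signalling chains of the B cell receptor. Cd79a stood at 147, 62.1, 78.3 and 58.1 TPM in Control replicates 3, 21, 24 and 26, and at 64.4, 32.1, 22.2, 24.3 and 30.5 TPM in WT bleomycin replicates 4, 2, 5, 4-B2 and 7. All WT bleomycin libraries but replicate 4 were below every control library. Cd79a thus had a log2 fold change of -1.35 (SE 0.29, adjusted p = 0.00148). Cd79b stood at 143, 57.0, 73.3 and 56.9 TPM in the same control libraries and at 60.4, 38.3, 23.1, 21.2 and 26.7 TPM in the same WT bleomycin libraries. Its order of libraries was close to that of Cd79a, with replicate 4 again the only WT bleomycin library inside the control range. Its log2 fold change was -1.32 (SE 0.29, adjusted p = 0.00186). The TPM of Cd79b was 0.873 to 1.19 times that of Cd79a in WT bleomycin, 0.919 to 0.979 times in control and 0.867 to 1.15 times in CB1R KO bleomycin, so both chains stayed near the same level in every library.

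Ms4a1 encodes CD20, a membrane protein of mature B cells. It stood at 30.3, 11.8, 16.6 and 13.3 TPM in Control replicates 3, 21, 24 and 26, and at 18.9, 11.0, 5.47, 4.57 and 6.64 TPM in WT bleomycin replicates 4, 2, 5, 4-B2 and 7. Replicate 4 lay within the control range and the other WT bleomycin libraries below it. The log2 fold change was -0.997 (SE 0.36, adjusted p = 0.032). Its call was lost in 6 of 22 alternatives. Without Control replicate 3 the log2 fold change was -0.64 (adjusted p = 0.149), and among the lower-case libraries it was -0.78 (adjusted p = 0.148).

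Blk encodes a Src family kinase that acts downstream of the B cell receptor. It stood at 23.8, 9.98, 12.4 and 9.47 TPM in Control replicates 3, 21, 24 and 26, and at 10.1, 4.51, 4.25, 2.80 and 4.23 TPM in WT bleomycin replicates 4, 2, 5, 4-B2 and 7. As for the receptor chains, only replicate 4 reached the control range. On the log2 scale the difference was -1.46 (SE 0.31, adjusted p = 0.00149). Cr2 encodes complement receptor 2, a co-receptor of B cells that follicular dendritic cells also carry. It was the lowest of the 9 genes, with 4.87, 2.87, 3.10 and 7.61 TPM in the control libraries in the same order and 4.64, 2.36, 1.23, 2.58 and 1.83 TPM in the WT bleomycin libraries. In TPM, Control replicate 26 was the highest control library for Cr2. In CPM it was replicate 3, with 18.9 beside 10.2 in replicate 26. The edgeR log2 fold change was -0.70 (SE 0.28, adjusted p = 0.051), and 6 of 22 alternatives put it past the threshold, the lowest adjusted p being 0.00331 without WT bleomycin replicate 4, where it reached -1.003.

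Pax5 and Pou2af1 encode nuclear factors. Pax5, the B cell identity factor, stood at 27.1, 9.56, 11.9 and 7.57 TPM in Control replicates 3, 21, 24 and 26, and at 9.45, 4.22, 3.32, 3.83 and 4.99 TPM in WT bleomycin replicates 4, 2, 5, 4-B2 and 7. The groups overlapped through WT bleomycin replicate 4 and Control replicate 26. The log2 fold change was -1.497 (SE 0.30, adjusted p = 0.000936), the lowest among the 9 genes. Pou2af1 encodes a coactivator of octamer-binding factors that B cells and plasma cells both use. It stood at 22.2, 11.7, 15.8 and 13.5 TPM in the control libraries and at 19.9, 9.08, 7.87, 8.72 and 15.6 TPM in the WT bleomycin libraries, in the same order. Replicates 4 and 7 of WT bleomycin lay inside the control range. On the log2 scale the difference was -0.41 (SE 0.26, adjusted p = 0.20), and it passed in 1 of 22 alternatives, without WT bleomycin replicate 4, where it was -0.63 (adjusted p = 0.0393).

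Leaving out Control replicate 3 brought the log2 fold changes nearer to 0, and they were then -0.99 for Cd79a, -0.93 for Cd79b, -1.06 for Pax5 and -1.09 for Blk. Each of these 4 genes passed the threshold in 22 of 22 alternatives.

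Both plasma cell genes had a log2 fold change above 0 in this comparison. Jchain encodes the joining chain of polymeric IgA and IgM. It stood at 22.3, 24.2, 15.9 and 22.1 TPM in Control replicates 3, 21, 24 and 26, and at 133, 40.5, 33.4, 157 and 334 TPM in WT bleomycin replicates 4, 2, 5, 4-B2 and 7. Every WT bleomycin library was above every control library, and the WT bleomycin libraries themselves spanned 10.0-fold. The edgeR log2 fold change was 2.70 (SE 0.63, adjusted p = 0.00252), and 25.0% of all genes were higher in this comparison. Jchain passed in 22 of 22 alternatives, with 1.67 (adjusted p = 0.0395) among the lower-case libraries, where only replicates 4, 2 and 5 represent WT bleomycin. Mzb1 encodes a chaperone of the endoplasmic reticulum that helps antibody assembly in marginal zone B cells and plasma cells. It stood at 15.0, 11.9, 8.27 and 9.17 TPM in control and at 19.6, 11.4, 10.5, 12.8 and 24.6 TPM in WT bleomycin, in the same order. Only replicates 4 and 7 exceeded all control libraries, and these were also among the higher ones for Jchain. The log2 fold change was 0.57 (SE 0.37, adjusted p = 0.224). It passed in 0 of 22 alternatives, and the number of plasma cell genes called higher was thus 1 of 2.

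Ratios within a library put the 2 groups of genes side by side. The TPM of Jchain was 0.152 to 0.389 times that of Cd79a in control libraries (median 0.292) and 1.26 to 10.9 times in WT bleomycin libraries (median 2.06). The ranges did not overlap. Mzb1 was 0.102 to 0.191 times the TPM of Cd79a in control and 0.305 to 0.807 times in WT bleomycin, and Pou2af1 was 0.151 to 0.232 times in control and 0.283 to 0.512 times in WT bleomycin. For Mzb1 and Pou2af1 too, the ranges of the ratio did not overlap, but neither gene passed the test by itself. Cd79a, the divisor, was itself lower in WT bleomycin, which raises the ratio of any gene that did not change. How many of all genes would have such separate ranges was not counted. Pax5, at 0.130 to 0.184 times Cd79a in control and 0.131 to 0.164 times in WT bleomycin, kept to the level of Cd79a. Jchain was 1.49 to 2.41 times the TPM of Mzb1 in control and 3.17 to 13.6 times in WT bleomycin. These ratios describe the libraries and were not tested.

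**Figure D2:**
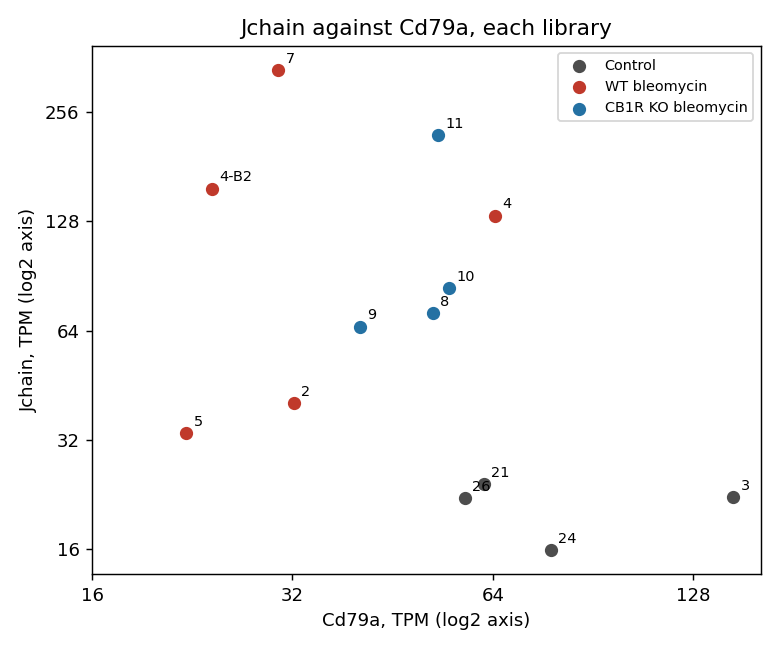
TPM of Jchain (y axis) against TPM of Cd79a (x axis), both on log2 axes, with 1 point per library, coloured by group and named by replicate. The 4 control libraries lie at the bottom with Jchain between 15.9 and 24.2, and all 9 bleomycin libraries lie above them with Jchain between 33.4 and 334.

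The second comparison set CB1R KO against WT lungs, both at day 14 after bleomycin. Of the 9 genes, 0 passed edgeR's quasi-likelihood test and 0 passed DESeq2 or limma on TPM, 1 had an unadjusted p under 0.05, and 0.979% of all genes passed. The groups overlapped in TPM for all 9 genes, while 5.27% of all genes did not overlap. The log2 fold changes of the 7 B cell genes lay between 0.19 and 0.77, all above 0, with a median of 0.51 beside 0.00 over all genes. These genes largely followed one another over the libraries, so their shared direction is not 7 separate results. The p-values that missed the threshold do not show that the genotypes were alike. Genes of other tissues also lay above 0 in this comparison, with a median log2 fold change of 1.05 over 6 cardiac muscle genes, 1.48 over 6 adipocyte genes, 0.33 over 5 red blood cell genes and 0.16 over 12 T cell genes, of which 11 were above 0. Their part in the values of the B cell genes was not tested.

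Blk was the gene with the unadjusted p under 0.05. It stood at 9.02, 7.73, 8.34 and 10.8 TPM in CB1R KO replicates 8, 9, 10 and 11, all above every WT bleomycin library but replicate 4. The log2 fold change against WT bleomycin was 0.77 (SE 0.32, unadjusted p = 0.0281, adjusted p = 0.231 by edgeR). Without WT bleomycin replicate 4 it was 1.14 (adjusted p = 0.048), and over the other 21 alternatives it did not pass. Cd79a stood at 52.1, 40.4, 55.1 and 53.0 TPM in CB1R KO replicates 8, 9, 10 and 11, and Cd79b at 45.1, 46.6, 54.5 and 54.8 TPM. Both lay within the range that WT bleomycin replicate 4 and the remaining WT bleomycin libraries spanned. Their log2 fold changes against WT bleomycin were 0.51 (SE 0.29, adjusted p = 0.396) and 0.56 (SE 0.29, adjusted p = 0.356).

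The other B cell genes lay within the range of the WT bleomycin libraries as well. Ms4a1 stood at 11.5, 10.8, 14.1 and 18.5 TPM in the CB1R KO libraries, in the order 8, 9, 10 and 11, with a log2 fold change against WT bleomycin of 0.55 (SE 0.36, adjusted p = 0.46). Pax5 stood at 6.57, 6.97, 5.50 and 6.20 TPM, with a log2 fold change of 0.40 (SE 0.31, adjusted p = 0.536). Cr2 at 2.64, 2.77, 3.97 and 3.79 TPM had a log2 fold change of 0.40 (SE 0.28, adjusted p = 0.499). Pou2af1 at 11.5, 12.4, 14.3 and 18.5 TPM had the smallest one, 0.19 (SE 0.25, adjusted p = 0.752). The CB1R KO libraries were the least spread for the receptor chains and Pax5: the highest over the lowest library was 1.36 for Cd79a, 1.21 for Cd79b and 1.27 for Pax5, beside 2.91, 2.85 and 2.85 in WT bleomycin and 2.53, 2.504 and 3.57 in control. The difference in spread was not tested.

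Jchain stood at 71.3, 65.6, 83.8 and 220 TPM in CB1R KO replicates 8, 9, 10 and 11, inside the range of WT bleomycin. Replicate 11, the library with the most counts, was the highest. The log2 fold change against WT bleomycin was -0.36 (SE 0.55, adjusted p = 0.781). It turned in 3 of 22 alternatives: it was 0.27 without WT bleomycin replicate 7, 0.71 (adjusted p = 0.672) among the lower-case libraries, and 0.47 with the letter case of the label as a batch term. Mzb1 stood at 9.57, 11.7, 14.2 and 35.02 TPM, with replicate 11 again far above the others. Its log2 fold change was 0.10 (SE 0.36, adjusted p = 0.915), and without CB1R KO replicate 11 it was -0.42. The TPM of Jchain was 5.60 to 7.45 times that of Mzb1 in the 4 CB1R KO libraries, a narrower range than in WT bleomycin, so both genes were high together in replicate 11.

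The third comparison set CB1R KO bleomycin against control, and it shares its control libraries with the first. Of the 7 B cell genes, 2 were lower, Cd79a and Pax5, where 16.3% of all genes were lower. The groups did not overlap in TPM for Cd79a, Cd79b and Pax5, against 32.6% of all genes in either direction. Pax5 had a log2 fold change of -1.09 (SE 0.32, adjusted p = 0.0152), and its call was lost only without Control replicate 3, where it was -0.65 (adjusted p = 0.0586). Cd79a had a log2 fold change of -0.84 (SE 0.30, adjusted p = 0.0434). This call held in 11 of 22 alternatives, and without Control replicate 3 the log2 fold change was -0.48 (adjusted p = 0.183). The remaining B cell genes did not pass, with log2 fold changes of -0.76 for Cd79b (adjusted p = 0.0654), -0.69 for Blk (adjusted p = 0.11), -0.45 for Ms4a1 (adjusted p = 0.371), -0.30 for Cr2 (adjusted p = 0.444) and -0.23 for Pou2af1 (adjusted p = 0.542). Cd79b passed in 6 of 22 alternatives and Blk in 2, both of them with the letter case of the label as a batch term, where the log2 fold changes were -0.90 (adjusted p = 0.0215) and -0.84 (adjusted p = 0.0382). Beside the values of Cd79b, Blk, Ms4a1, Cr2 and Pou2af1, the log2 fold changes of WT bleomycin against the same controls were -1.32, -1.46, -0.997, -0.70 and -0.41.

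Jchain was higher in CB1R KO bleomycin than in control lungs, with every CB1R KO library above every control library. On the log2 scale the difference was 2.34 (SE 0.63, adjusted p = 0.0106), where 19.0% of all genes were higher. It passed in 22 of 22 alternatives, and without CB1R KO replicate 11 it was 1.72 (adjusted p = 0.048). Mzb1 had a log2 fold change of 0.67 (SE 0.39, adjusted p = 0.192). In TPM, Jchain was 1.37 to 4.16 times Cd79a in CB1R KO libraries, and this range too lay above that of control.

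**Figure D3:**
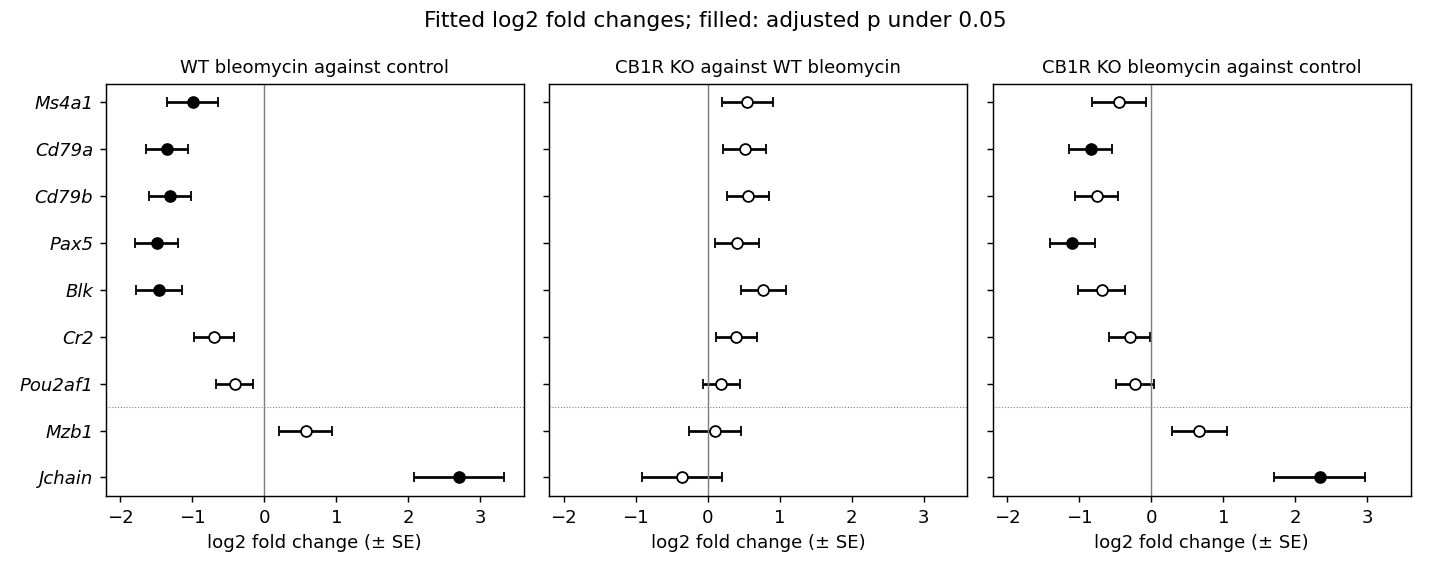
Fitted log2 fold changes (x axis) of the 9 genes (y axis) in the 3 comparisons, with whiskers of 1 SE and filled points for an adjusted p under 0.05. In WT bleomycin against control, 5 B cell genes are filled to the left of 0 and Jchain is filled at 2.70, and no point is filled in CB1R KO against WT bleomycin.

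In level, Jchain had the highest mean TPM over the 13 libraries (94.1), followed by Cd79a (55.3) and Cd79b (53.9). A gap separated these from Mzb1 (14.9), Pou2af1 (13.9) and Ms4a1 (13.4), and Blk (9.04), Pax5 (8.24) and Cr2 (3.40) came last. Neighbours in this order mostly overlapped: Cd79a and Cd79b differed by less than the spread between libraries, as did Mzb1, Pou2af1 and Ms4a1. In control alone, Jchain (21.1 ± 3.59 TPM, SD, n = 4) was below Cd79a (86.4 ± 41.4 TPM, SD, n = 4), and its place at the top came from the bleomycin libraries.

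Other genes of both cell types were read from further lists. Of 24 other B cell genes, WT bleomycin lungs had 19 at a lower and 1 at a higher level than control, with a median log2 fold change of -0.94. Of all genes, 23.9% were lower and 25.0% higher. Fcrla, an Fc receptor-like protein of B cells, had a log2 fold change of -1.37 (SE 0.26, adjusted p = 0.0005). Ralgps2 had -1.18, and Ebf1, the early B cell factor that lung stromal cells also express, had -0.71. The 1 gene that was higher was Cd72, an inhibitory receptor that macrophages can also express, with 0.59 (SE 0.19, adjusted p = 0.02), a call lost in 3 of 22 alternatives. It was named after its values were seen. Between CB1R KO and WT bleomycin, 0 of the 24 passed by edgeR, DESeq2 or limma, and 2 had an unadjusted edgeR p under 0.05. Over all genes, 0.979% passed by edgeR, and 644 of 15218 passed by DESeq2. Of the 24, 22 had a log2 fold change above 0, with a median of 0.37. Of all 15315 genes tested by edgeR, 7673 lay above 0. In this comparison Fcrla had 0.61 (adjusted p = 0.244) and Ralgps2 0.44 (adjusted p = 0.173). Against control, 7 of the 24 were lower in CB1R KO bleomycin lungs and 0 were higher, beside 16.3% and 19.0% of all genes.

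Vpreb3, a chaperone-like protein of the B lineage, differed from the others in the order of its control libraries. It stood at 31.1, 54.6, 44.4 and 52.9 TPM in Control replicates 3, 21, 24 and 26 and at 19.1, 16.2, 14.5, 23.2 and 17.3 TPM in WT bleomycin replicates 4, 2, 5, 4-B2 and 7. Control replicate 3, the highest for most B cell genes, was here the lowest control library, and the groups did not overlap. The edgeR log2 fold change was -1.37 (SE 0.21, adjusted p = 0.000101).

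Over the 13 libraries, the genes whose centred log2 level lay nearest to the mean of the B cell genes were Ikzf3, Bank1, H2-Ob, Fcrla and Slc28a2, with root mean square differences of 0.14, 0.14, 0.15, 0.15 and 0.15 on the log2 scale. The B cell genes themselves lay 0.12 (Cd79b) to 0.35 (Pou2af1) from that mean, and Pou2af1 was thus the farthest. In WT bleomycin against control, the log2 fold changes of the nearest genes were -0.97 for Ikzf3, -1.06 for Bank1, -1.22 for H2-Ob, -1.37 for Fcrla and -0.92 for Slc28a2. The nearest genes were picked by their levels in these same libraries, so fold changes like those of the B cell genes follow from the choice. The plasma cell genes had no comparably near neighbours. The nearest were Slit1, Ctla4, Ramp3, Dnase1l3 and Cenpa, at 0.52 to 0.57, farther than Jchain and Mzb1 lay from their own mean (0.47). That mean is of this pair alone, so both lie equally far from it. The log2 fold changes in WT bleomycin against control were 1.21 for Slit1, 1.61 for Ctla4, 0.85 for Ramp3, 1.10 for Dnase1l3 and 1.12 for Cenpa. Directions like those of Jchain and Mzb1 again follow from the choice.

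Of 13 other plasma cell genes, 12 passed the count filter. In WT bleomycin 5 were higher than in control, 1 was lower and 6 did not pass, beside 25.0% of all genes higher and 23.9% lower. The median log2 fold change of the 12 was 0.31. Sdc1, the syndecan on plasma cells that epithelial cells also carry, had 0.66 (SE 0.06, adjusted p = 1.92e-06). Xbp1, a factor of the secretory program in many cell types, had 0.40 (SE 0.08, adjusted p = 0.000953). Txndc5 had 0.40, and Ell2, an elongation factor used in antibody secretion, had 0.41. Slamf7 had 0.73 and Prdm1, the factor that drives plasma cell differentiation, had -0.64 (SE 0.15, adjusted p = 0.0026), both named after their values were seen. Tnfrsf17, the plasma cell receptor BCMA, did not pass the filter and stood at or below 1.71 TPM in all 13 libraries. Of the 12, 0 passed between CB1R KO and WT bleomycin by edgeR, DESeq2 or limma, where 0.979% of all genes passed by edgeR. Of these 12, 1 had an unadjusted edgeR p under 0.05, and their median log2 fold change was 0.00.

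**Figure D4:**
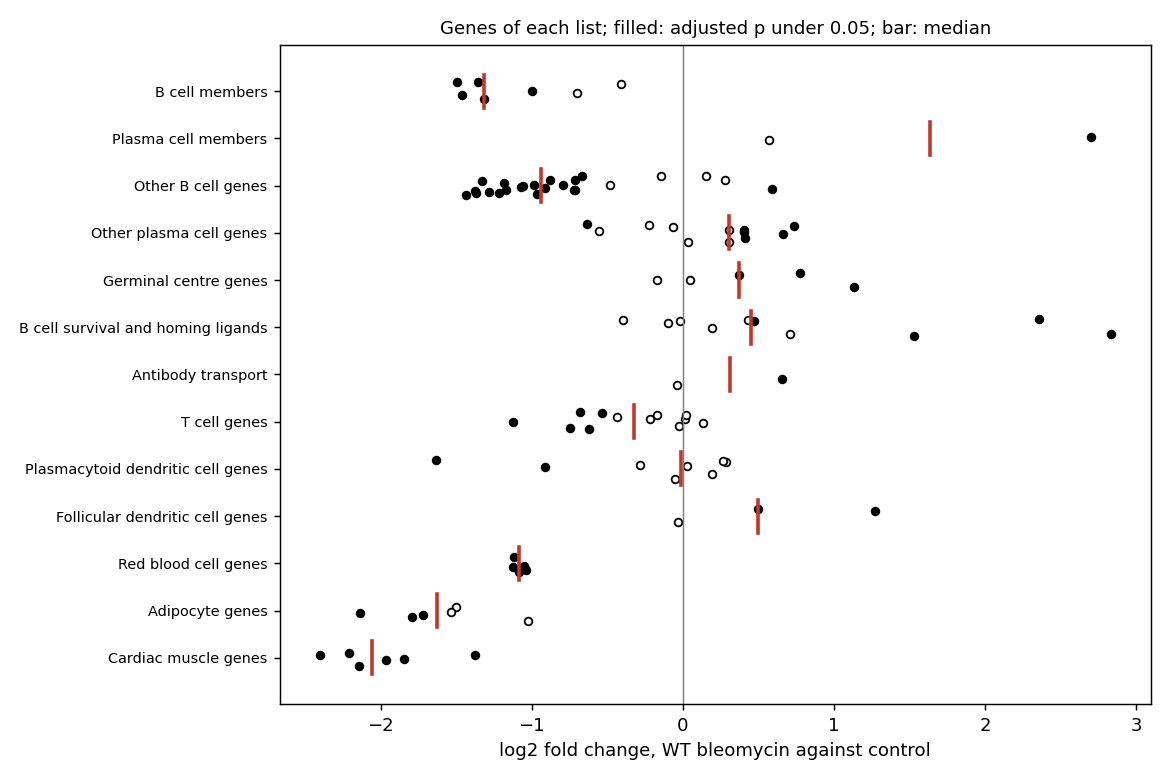
Log2 fold changes in WT bleomycin against control (x axis) of every tested gene in each list (y axis), with filled points for an adjusted p under 0.05 and a bar at the median of the list. The medians of the B cell genes (-1.32) and of the other B cell genes (-0.94) lie left of 0, and those of the other plasma cell genes (0.31) and of the ligands (0.45) lie right of it.

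Of 12 ligands that attract or sustain B cells and plasma cells, 10 were tested, and 4 were higher and 0 lower in WT bleomycin than in control. The shares over all genes were 25.0% higher and 23.9% lower. Cxcl13, the chemokine that draws B cells into follicles, stood at 4.04, 3.88, 4.81 and 8.39 TPM in Control replicates 3, 21, 24 and 26 and at 36.1, 26.6, 26.6, 28.1 and 74.8 TPM in WT bleomycin replicates 4, 2, 5, 4-B2 and 7. All WT bleomycin libraries were above all control libraries, and replicate 7, the highest for Jchain, was also the highest for Cxcl13. The log2 fold change was 2.83 (SE 0.48, adjusted p = 0.000216). Il6, a cytokine that promotes plasma cell differentiation, had 2.36 (SE 0.34, adjusted p = 6.5e-05), and Ccl21a, a chemokine of lymphatic and stromal cells, had 1.53 (SE 0.19, adjusted p = 1.56e-05). Cxcl12, which retains plasma cells in their niches, had 0.47 (SE 0.18, adjusted p = 0.0419), a call lost in 7 of 22 alternatives. Tnfsf13b, the survival factor BAFF, had -0.10 (adjusted p = 0.635).

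Between CB1R KO and WT bleomycin, Cxcl13 had a log2 fold change of -0.78 (SE 0.41, adjusted p = 0.353), with 11.3, 11.3, 25.8 and 40.3 TPM in CB1R KO replicates 8, 9, 10 and 11. Il6 had -0.98 (SE 0.31, adjusted p = 0.133), and it passed in 3 of 22 alternatives, DESeq2 among them (adjusted p = 0.0374). Pigr encodes the epithelial receptor that carries J chain-bearing antibody into secretions. Its level in WT bleomycin exceeded that in control by 0.66 on the log2 scale (SE 0.21, adjusted p = 0.0186), a call lost in 3 of 22 alternatives. Between CB1R KO and WT bleomycin it had -0.81 (SE 0.21, adjusted p = 0.0789), and it passed by DESeq2 alone among the 22 alternatives (adjusted p = 0.00728).

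Of 6 germinal centre genes, 5 were tested and 3 were higher in WT bleomycin than in control, beside 25.0% of all genes. Mybl1 had a log2 fold change of 1.14, Gcsam 0.78 and S1pr2, a receptor that holds B cells in the germinal centre, 0.37. Of the follicular dendritic cell genes, 3 were tested, and Clu at 1.27 and Tnfrsf1a at 0.49 were higher, both of which many lung cells express. Fdcsp, a defining gene of these cells, was not among the rows used here.

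Genes of other cell types also differed in WT bleomycin against control. Of 12 T cell genes, 5 were lower and 0 higher in WT bleomycin than in control, with a median log2 fold change of -0.33. Over all genes, the shares were 23.9% lower and 25.0% higher. Lef1 had -1.12, Lck -0.68, Tcf7 -0.62 and Ccr7 -0.54, whereas Cd3e, a chain of the T cell receptor complex, had -0.43 (adjusted p = 0.0891). The summed TPM of the T cell genes was 131 to 212 in control, 106 to 166 in WT bleomycin and 137 to 163 in CB1R KO bleomycin. Of 8 plasmacytoid dendritic cell genes, 2 were lower and 6 did not pass, a share close to the 23.9% of all genes, and 4 of the 8 had a log2 fold change above 0 (median -0.01). The lower ones were Cox6a2 at -1.64 and Siglech at -0.91, the latter in 16 of 22 alternatives. In control, Cox6a2 had a mean of 44.0 TPM and Siglech 2.97 TPM. Between CB1R KO and WT bleomycin, Cox6a2 had 0.98 and Siglech 0.67 (adjusted p = 0.118 and 0.295 by edgeR). Cardiac muscle genes had medians of -2.06 and 1.05 in the same comparisons. Which cells the level of Cox6a2 reflects was not tested. The summed TPM of the 8 genes was 88.1 to 124 in control, 69.4 to 102 in WT bleomycin and 99.1 to 118 in CB1R KO bleomycin.

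Genes of blood, heart and fat were read in the same way, beside the 23.9% of all genes that were lower. All 5 red blood cell genes were lower in WT bleomycin (median -1.08 on the log2 scale, with Hba-a1 at -1.08). Their summed TPM was 18554 to 22525 in control, 7925 to 11523 in WT bleomycin and 9121 to 15761 in CB1R KO bleomycin. All 6 cardiac muscle genes were lower, with a median of -2.06 and Tnni3 at -1.97, and their summed TPM was 607 to 1590, 126 to 449 and 441 to 786 in the 3 groups. Of 6 adipocyte genes tested, 3 were lower, Cidec at -2.14, Plin1 at -1.79 and Retn at -1.72, and summed TPM was 82.5 to 341, 30.9 to 187 and 76.6 to 336. The calls of Plin1 and Retn were kept in 15 and 14 of 22 alternatives. For comparison, the summed TPM of the 7 B cell genes was 165 to 398 in control, 67.4 to 188 in WT bleomycin and 128 to 166 in CB1R KO bleomycin, and that of Jchain and Mzb1 was 24.2 to 37.3, 43.9 to 358 and 77.4 to 255. The part of blood, heart, fat and other lymphoid tissue in the lower levels of the B cell genes was not tested.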

How the data were processed

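Lung RNA of 13 mice was enriched with oligo(dT), prepared with the NEBNext Ultra II kit and sequenced as paired ends on an Illumina HiSeq. The authors quantified reads with Kallisto on the mouse reference of Ensembl (GRCm39, per the labels), and deposited estimated counts and TPM added up per gene from its protein-coding transcripts. The TPM table held 1 column that matched no sample and was not used.

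Groups follow the treatment and genotype given for each sample. Estimated counts were rounded and filtered with filterByExpr, and edgeR 4.0.16 in R 4.3.3 fitted 15315 genes after TMM normalization for its quasi-likelihood test, with 1 coefficient for each of the 3 groups, no covariates and Benjamini-Hochberg adjustment. Each p-value sets a difference between groups against the spread between libraries, estimated over the 3 groups together and moderated across genes. Each library was read as a separate mouse. What B2 means in the label of WT bleomycin replicate 4-B2, which shares its number with replicate 4, is not given. Log2 CPM used a prior count of 2. Overlap of groups was read in TPM to match the levels printed, and in CPM for the first comparison as well. The edgeR fit was tested on simulated counts.

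The genes and lists were chosen with earlier results of these data known. Named were the 9 genes, up to 4 genes per further list with the lowest p past the threshold in either of the first 2 comparisons, 8 defining genes, and the 5 genes most like each group of genes. Values of 1 such gene are not reported here. The 22 alternatives per comparison were RLE normalization, no count filter, DESeq2 1.42.0, edgeR on 2 groups, limma 3.58.1 on log2(TPM + 1) and log2(TPM + 0.1), the letter case of the label as a batch term, lower-case labels only, CB1R KO replicate 11 thinned, and each of the 13 libraries left out. A fold on the log2(TPM + pseudocount) scale understates low genes. Python 3.11.15, pandas 2.3.3, numpy 2.4.6 and matplotlib 3.10.9 were used.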

Additional observations from a re-analysis of the deposited data

Results flagged for a closer look

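In 4 of 27 sets of values (9 genes in 3 groups), the highest library stood apart from the rest of its group by Dixon's criterion. Chance meets it in about 1 in 20 independent sets. These sets share libraries and hold genes that move together, so 4 of 27 cannot be set against that share. WT bleomycin replicate 4 stood apart for Cd79a (64.4 TPM), Pax5 (9.45 TPM) and Blk (10.1 TPM), and CB1R KO replicate 11 for Jchain (220.3 TPM).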

How the results depend on the processing

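The number of the 9 genes that passed in WT bleomycin against control stayed within 1.5 times under every alternative. Between CB1R KO and WT bleomycin it was 0 to 1 when each library was left out, the 1 being Blk without WT bleomycin replicate 4. Against control it was 5 for CB1R KO bleomycin with the letter case of the label as a batch term, and 1 to 5 when each library was left out, with 1 without Control replicate 3 and 5 without WT bleomycin replicate 4. Set against WT bleomycin, the sign of the CB1R KO log2 fold change turned for Jchain (0.47 with the batch term, 0.71 among the lower-case libraries, -0.98 to 0.27 with each library left out) and for Mzb1 (-0.42 to 0.34 with each library left out). The cause was not tested. Over the 9 genes, 554 of their values under the alternatives kept their direction and their side of the threshold, 18 lost the threshold, 16 gained it and 6 turned. No paired analysis was possible because the groups share no replicate numbers. Depth limits Mzb1, Blk and Cr2 most, which had as few as 61.4, 62.5 and 77.7 estimated counts in a library.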
